A study of Mus musculus with 4 samples.

Results

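Cholesterol and fatty acid synthesis genes were examined in myeloid cells that infiltrate cutaneous squamous cell carcinoma, a skin cancer of keratinocytes, in FVB/N mice. The group holds 33 named genes out of 23420 rows of the expression table. Its rule asks for a value of at least 10 in 2 or more of the 4 libraries, which all 33 genes met, as did 12463 rows of the whole table. The lowest value of any of the 33 genes was 102, for Acss2 in EpiKO replicate 2, so none lay close to the minimum and none fell outside it. EpiKO is the genotype K14Cre;CD200fl/fl, in which a Cre recombinase under the keratin 14 promoter of basal epithelial cells removes CD200, a surface protein, and the tumours are labelled CD200-. WT is the wild type, whose tumours carry CD200. There were 2 EpiKO and 2 WT libraries of bulk RNA, each from cells sorted as CD11b+ CD200R1+ out of orthotopic tumours, CD11b being an integrin of myeloid cells and CD200R1 the receptor for CD200. The comparison asks which genes of the receptor-bearing cells depend on CD200 of the tumour. The labels give no age, sex, batch or pooling of animals, and nothing says that the replicates came from separate mice, so p-values measure only the spread between these libraries, which may be technical.

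Cells make cholesterol from acetyl-CoA, first through mevalonate to isoprenoid units and then through squalene and lanosterol to the finished sterol. Fatty acids start from the same acetyl-CoA, are carboxylated and built up by fatty acid synthase, and are then lengthened and desaturated. Both routes are switched on by the sterol regulatory element binding proteins, transcription factors encoded by Srebf1 and Srebf2, which Scap escorts out of the endoplasmic reticulum when sterols are low and which the Insig proteins hold back when sterols are high. In macrophages, these routes are known to be tied to membrane growth, to inflammatory activation and, through oxysterols and the LXR receptors, to cholesterol export.

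The libraries held 17398176 and 19318481 reads in genes in EpiKO and 15884132 and 21244158 in WT. Values are normalised read counts, in which 1 read was worth 0.841 to 1.16. Defining markers of sorted myeloid cells were abundant, with Csf1r at 45316 or above in every library. Lyz2 stood at 325763 and 235159 in EpiKO and at 207009 and 157099 in WT, and Itgam, which encodes CD11b, at 40692 and 30075 in EpiKO and at 26151 and 26738 in WT. Of the 9 myeloid markers, 5 lay higher in both EpiKO libraries, against 23.3% of all tested genes. Lower in both was 1, Ptprc, against 23.8% of all tested genes, at 11880 and 12094 in EpiKO and 13256 and 13395 in WT. The widest difference was that of Cd200r1, the gene of the other sort marker, at 1101 and 612 in EpiKO and at 318 and 293 in WT, a ratio of 2.81 (limma adjusted p 0.115). Their summed level was 462852 and 393255 in EpiKO and 356005 and 305290 in WT, most of it Lyz2. Without Lyz2, the other 8 summed to 137088 and 158096 in EpiKO and to 148996 and 148191 in WT, which overlap. Cd200 itself stood at 17.2 and 15.1 in EpiKO and at 92.7 and 59.7 in WT, but the sorted cells are not those in which the Cre acts, so this does not check the labels. One library stood apart: basal keratinocyte genes were high in WT replicate 1, with Krt14 at 8.61 and 18.9 in EpiKO and at 1907 and 28.6 in WT. The keratin genes of simple epithelium, Krt8 and Krt18, were higher in both EpiKO libraries, with Krt8 at 1999 and 4164 in EpiKO and at 446 and 234 in WT. Whether the sorted cells or other cells made these keratin transcripts was not tested, nor was their part in the lipid genes. The range of each fold change over the fits without 1 library is plotted with the fold changes.

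Scd2, a stearoyl-CoA desaturase that makes monounsaturated fatty acids, was the single gene of the 33 to pass the test, and it rose about 2.12-fold. It had 7302 and 6608 normalised counts in EpiKO and 3534 and 3029 in WT, so the groups did not overlap. Its log2 fold change was 1.09 ± 0.132 (SE), and limma gave an adjusted p of 0.0471 (Benjamini-Hochberg). The gene lies on the plus strand of chromosome 19 of mm10, from 44293674 to 44306864, and its exons hold the microRNA gene Mir5114. The call is a narrow one outside DESeq2: the adjusted p was 0.0517 in edgeR's quasi-likelihood test and 0.0977 in limma without trend or robust moderation. DESeq2, which called 3.73% of all tested genes higher, gave an adjusted p of 2.43e-08. Leaving out any single library, controls included, gave an adjusted p of 0.1002 to 0.231 with a log2 fold change of 0.97 to 1.20.

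Below that threshold, the list leaned to higher values in EpiKO. Of the 33 genes, 26 had a positive log2 fold change, against 49.7% of all tested genes, and the median was 0.30, against -0.0021 over all tested genes. Both EpiKO libraries lay above both WT libraries for 23 genes, against 23.3% of all tested genes. The opposite arrangement held for 1 gene, Insig1, against 23.8% of all tested genes. At an unadjusted p under 0.05, 10 genes were higher, where 8.07% of all tested genes were, and 1 was lower, where 7.57% were. At the adjusted threshold, 1 of 33 was called higher, where 0.417% of all tested genes were, and 0 were called lower, where 0.53% were. Over both directions 0.947% of all tested genes were called. DESeq2 on the recovered reads called 5 of the 33 higher, namely Scd2, Mvd, Sqle, Acly and Fasn, where it called 3.73% of all tested genes, and 0 lower, where it called 3.12%. edgeR called none of the 33, where it called 0.385% of all tested genes higher and 0.457% lower. These shares describe a list that was drawn up with earlier results of these data known and carry no p-value of their own. Where counts for smaller groups, neighbouring lists or markers below have no share beside them, these shares over all tested genes are the comparison.

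**Figure D1:**
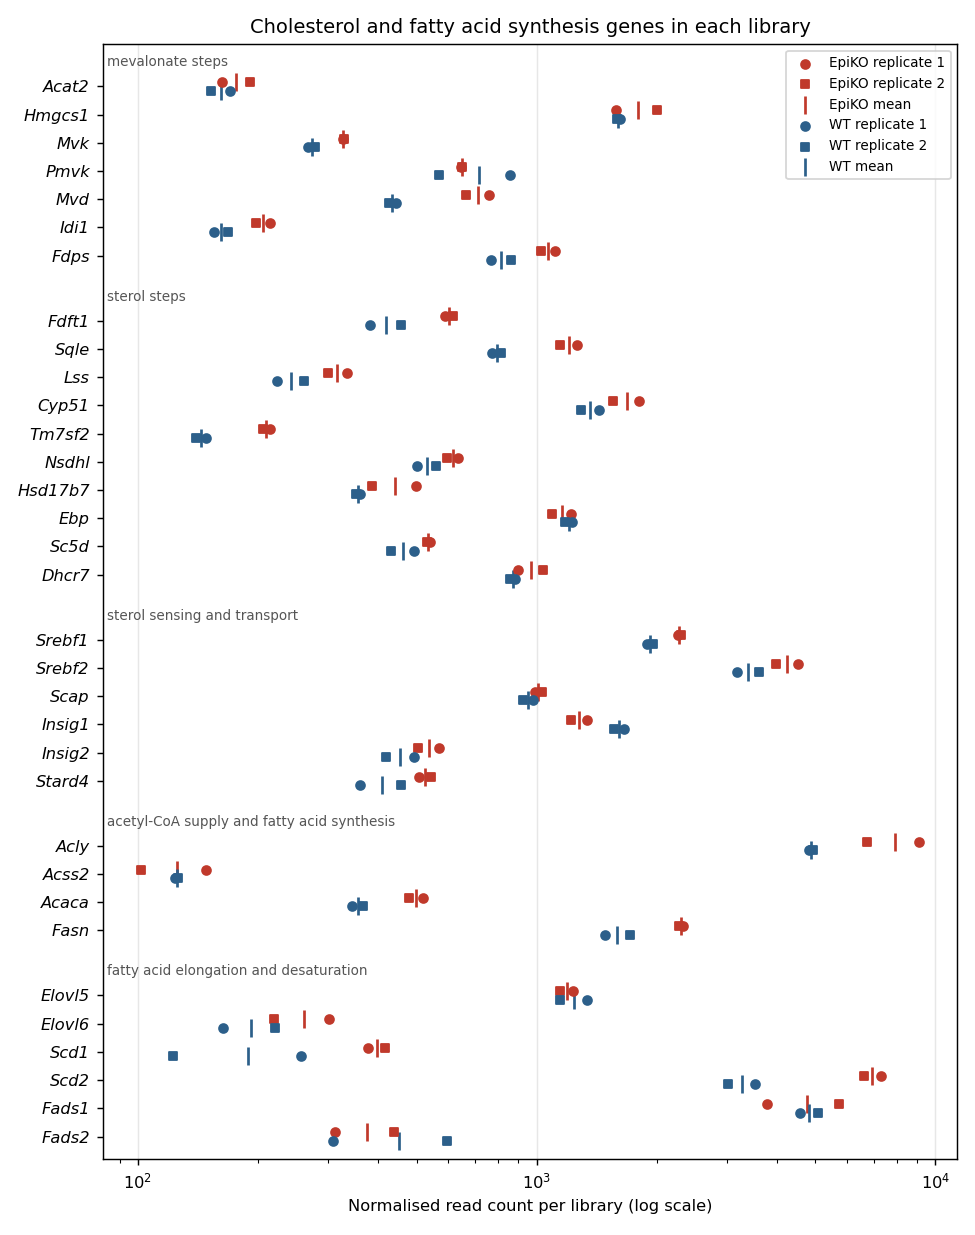
Normalised read counts of the 33 genes on a log axis, one row per gene in pathway order, with a circle for replicate 1 and a square for replicate 2 of EpiKO (red) and WT (blue) and a vertical tick for each group mean (n = 2). The red points lie to the right of the blue ones for 23 genes (23.3% of all tested genes), most widely for Scd2, and to the left for Insig1 alone (23.8% of all tested genes).

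The promoter windows of the genes with the smallest p-values that have an entry in the RefSeq promoter table (build GRCm38.p6) are shown because these genes led the list and all lay higher in EpiKO. Each runs 5′ to 3′ on the gene's own strand, from 250 bases before the annotated start to 50 after it. Mvd, Fasn and Acly lie on the minus strand and Acaca on the plus strand. Capitals mark matches on either strand to the core of the sterol regulatory element (TCACNCCAC), to the NF-Y box (CCAAT) and to the Sp1 box (GGGCGG).
Mvd chr8:122443373-122443672: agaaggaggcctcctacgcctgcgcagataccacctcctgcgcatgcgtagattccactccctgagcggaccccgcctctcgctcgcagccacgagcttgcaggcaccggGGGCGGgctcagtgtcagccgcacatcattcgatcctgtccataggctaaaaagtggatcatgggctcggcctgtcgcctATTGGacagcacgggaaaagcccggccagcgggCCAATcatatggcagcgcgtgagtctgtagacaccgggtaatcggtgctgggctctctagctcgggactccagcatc
Fasn chr11:120824498-120824797: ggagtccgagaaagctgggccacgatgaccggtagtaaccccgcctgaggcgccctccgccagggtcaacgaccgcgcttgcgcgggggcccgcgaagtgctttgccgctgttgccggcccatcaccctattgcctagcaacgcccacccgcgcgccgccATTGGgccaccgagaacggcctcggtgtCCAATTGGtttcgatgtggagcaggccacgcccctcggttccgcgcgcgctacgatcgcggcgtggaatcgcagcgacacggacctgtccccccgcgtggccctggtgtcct
Acly chr11:100527951-100528250: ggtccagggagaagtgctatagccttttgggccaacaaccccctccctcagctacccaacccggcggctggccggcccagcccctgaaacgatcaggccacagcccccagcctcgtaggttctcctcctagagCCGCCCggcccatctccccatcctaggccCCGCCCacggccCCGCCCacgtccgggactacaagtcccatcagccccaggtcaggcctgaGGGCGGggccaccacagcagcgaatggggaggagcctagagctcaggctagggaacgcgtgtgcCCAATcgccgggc
Acaca chr11:84195188-84195487: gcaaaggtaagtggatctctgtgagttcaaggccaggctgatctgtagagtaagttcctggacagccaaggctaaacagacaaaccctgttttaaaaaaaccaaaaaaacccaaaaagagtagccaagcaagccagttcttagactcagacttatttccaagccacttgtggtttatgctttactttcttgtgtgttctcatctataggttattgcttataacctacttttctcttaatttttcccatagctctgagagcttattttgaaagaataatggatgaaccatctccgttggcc

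The Mvd window held an Sp1 box at -140 and NF-Y boxes at -60 and -27, counted from the start to the leftmost base of each match. In the Fasn window, NF-Y boxes began at -90, -62 and -59, and the last of these overlap each other on opposite strands. The Acly window had Sp1 boxes at -117, -88, -76 and -27 and an NF-Y box at 38. None of the searched letters occurred in the Acaca window, which lies inside the gene as GENCODE M21 annotates it. Across the list, 26 genes had 34 windows, of which 22 held an NF-Y box (64.7%, against 37.4% of all 32851 windows of the table). An Sp1 box was found in 25 of the 34 (73.5%, against 35.7% of all windows). The sterol regulatory element core, by these letters, was present in 1 of the 34 windows, that of Hmgcs1, against 1.24% of all windows. The windows of the whole table were not matched to those of the list for expression or base composition, and genes with several windows count more than once. A match describes the letters only and says nothing of binding in these cells.

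**Figure D2:**
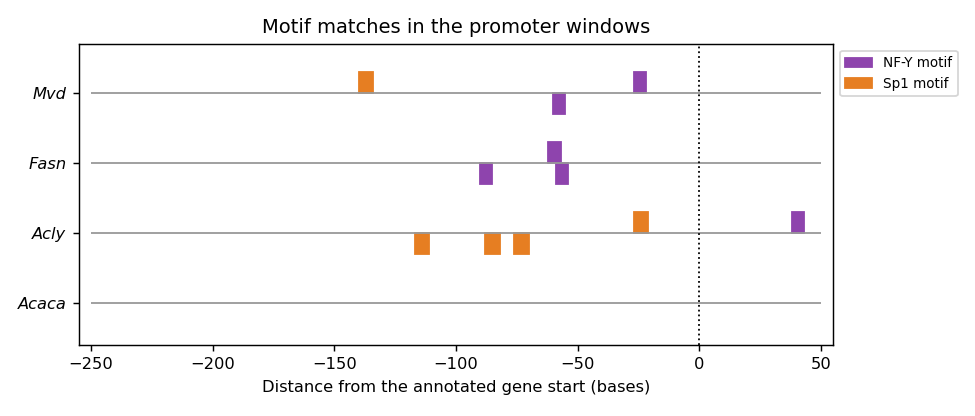
Matches to the NF-Y box (purple) and the Sp1 box (orange) in the promoter windows of Mvd, Fasn, Acly and Acaca, plotted by distance in bases from the annotated gene start (dotted line); boxes above a line are on the gene's strand and boxes below it on the opposite strand. Mvd has NF-Y boxes at -60 and -27, Fasn has NF-Y boxes alone, Acly has Sp1 boxes in a row before the start, and the Acaca line is empty.

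The mevalonate steps carried small differences that mostly pointed up, and none of the 7 genes passed the test (limma). At an unadjusted p under 0.05, 2 of them were higher and 0 lower, against 8.07% and 7.57% of all tested genes. DESeq2 called 1 higher, against 3.73% of all tested genes, and edgeR 0, against 0.385%. Mvd, the decarboxylase that yields isopentenyl diphosphate, had 760 and 665 normalised counts in EpiKO and 445 and 425 in WT. The groups were well separated, with a log2 fold change of 0.71 ± 0.126 (SE; limma adjusted p 0.0821). DESeq2 called this gene, at an adjusted p of 0.00953. Fdps, which joins isoprenoid units into farnesyl diphosphate, had 1111 and 1027 in EpiKO and 767 and 861 in WT, a log2 fold change of 0.39 ± 0.118 (SE; limma adjusted p 0.207).

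Idi1, the isomerase between them, had 214 and 198 normalised counts in EpiKO and 155 and 168 in WT, a log2 fold change of 0.35. Mvk, mevalonate kinase, stood at 326 and 329 in EpiKO and at 268 and 278 in WT, with hardly any spread within either group and a log2 fold change of 0.26. The entry steps were closer to level. Hmgcs1, the cytosolic HMG-CoA synthase, had 1586 and 2002 in EpiKO and 1616 and 1589 in WT, so the groups overlapped. Acat2, the cytosolic thiolase that starts the route, had 163 and 191 in EpiKO and 170 and 153 in WT. Pmvk, phosphomevalonate kinase, had 648 and 650 in EpiKO and 860 and 571 in WT, and its log2 fold change of -0.11 became 0.19 without WT replicate 1, the library with basal keratin transcripts.

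On the sterol steps, from squalene to cholesterol, both EpiKO libraries lay above both WT libraries for 9 of 10 genes, against 23.3% of all tested genes. None of the 10 was called by limma. At an unadjusted p under 0.05, 3 were higher and 0 lower, against 8.07% and 7.57% of all tested genes. DESeq2 called 1 higher, against 3.73% of all tested genes, and edgeR 0, against 0.385%. Sqle, squalene epoxidase, a rate-limiting enzyme of the sterol branch, had 1264 and 1143 normalised counts in EpiKO and 774 and 814 in WT. That is a log2 fold change of 0.60 ± 0.112 (SE; limma adjusted p 0.0893 and 0.0132 by DESeq2). The gene lies on the plus strand of chromosome 15 of mm10, from 59315077 to 59331192.

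Fdft1, squalene synthase, which commits farnesyl diphosphate to sterols, had 588 and 617 normalised counts in EpiKO and 381 and 457 in WT. Its log2 fold change was 0.53 ± 0.140 (SE; limma adjusted p 0.170). Its annotated exons share bases with the protease gene Ctsb on the opposite strand, and since the strand setting of the counting is not given, reads of the pair cannot be told apart there. Tm7sf2, a sterol reductase, had 214 and 206 in EpiKO and 148 and 140 in WT, a log2 fold change of 0.54 ± 0.167 (SE; limma adjusted p 0.217). Its exons share bases with Vps51 on the same strand.

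The remaining sterol enzymes differed less. Lss, lanosterol synthase, had 334 and 299.6 normalised counts in EpiKO and 224 and 261 in WT, and Cyp51, the lanosterol demethylase, had 1811 and 1554 in EpiKO and 1436 and 1294 in WT. Their log2 fold changes were 0.39 and 0.30. Cyp51 overlaps exons of Akap9 on the opposite strand. Hsd17b7, a sterol ketone reductase, had 498 and 386 in EpiKO and 362 and 352 in WT. Nsdhl, a sterol dehydrogenase, had 635 and 596 in EpiKO and 502 and 560 in WT. Both showed the same arrangement with narrower gaps, at log2 fold changes of 0.30 and 0.22.

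At the end of the route, Sc5d, a sterol desaturase, had 539 and 531 normalised counts in EpiKO and 494 and 431 in WT. Dhcr7, which reduces the last double bond to give cholesterol, had 899 and 1041 in EpiKO and 882 and 859 in WT, so that EpiKO replicate 1 exceeded WT replicate 1 only slightly. Ebp, a sterol isomerase, was the exception, with 1219 and 1094 in EpiKO and 1230 and 1181 in WT, overlapping groups and a log2 fold change of -0.061 (SE 0.111). Over the 17 cholesterol enzymes the summed normalised count was 12809 and 12529 in EpiKO and 10714 and 10394 in WT, a ratio of 1.20.

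Of the 6 sensing genes, 5 lay higher and 1 lower in both EpiKO libraries, against 23.3% and 23.8% of all tested genes. None of the 6 passed the limma test, and edgeR and DESeq2 called 0. At an unadjusted p under 0.05, 0 were higher and 1 was lower, against 8.07% and 7.57% of all tested genes. Srebf2, the activator of the cholesterol genes, had 4519 and 3976 normalised counts in EpiKO and 3176 and 3614 in WT (log2 fold change 0.32 ± 0.131 (SE), limma adjusted p 0.332). Srebf1, whose product drives fatty acid synthesis above all, had 2261 and 2300.3 in EpiKO and 1897 and 1961 in WT (log2 fold change 0.24 ± 0.1004 (SE), limma adjusted p 0.343). Both sat higher in EpiKO with no overlap, and exons of Srebf1 overlap those of Rai1 on the other strand. Non-coding or predicted transcripts overlap Hmgcs1, Idi1, Lss and Scap on the opposite strand and Fdps on the same strand. Scap, the escort protein, had 993 and 1029 in EpiKO and 979 and 925 in WT, nearly level at a log2 fold change of 0.086.

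Insig1 and Insig2, which retain the Scap complex, lay in opposite directions. Insig1, itself a well-known target of the Srebf factors, had 1337 and 1223 normalised counts in EpiKO and 1654 and 1567 in WT. Both EpiKO values were below both WT values, at a log2 fold change of -0.33 ± 0.109 (SE; limma adjusted p 0.240), and leaving out any library kept it between -0.40 and -0.27. Insig2 had 571 and 506 in EpiKO and 493 and 419 in WT, a log2 fold change of 0.24 (SE 0.144). The ratio of Insig1 to Insig2 was 2.34 and 2.42 in EpiKO and 3.36 and 3.74 in WT, without overlap. With 2 libraries a group, the smallest two-sided p of an exact permutation is 0.333, so ratios are given as values. Stard4, a sterol carrier and also a sterol-regulated gene, had 507 and 544 in EpiKO and 360 and 457 in WT, a log2 fold change of 0.37 (SE 0.159).

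**Figure D3:**
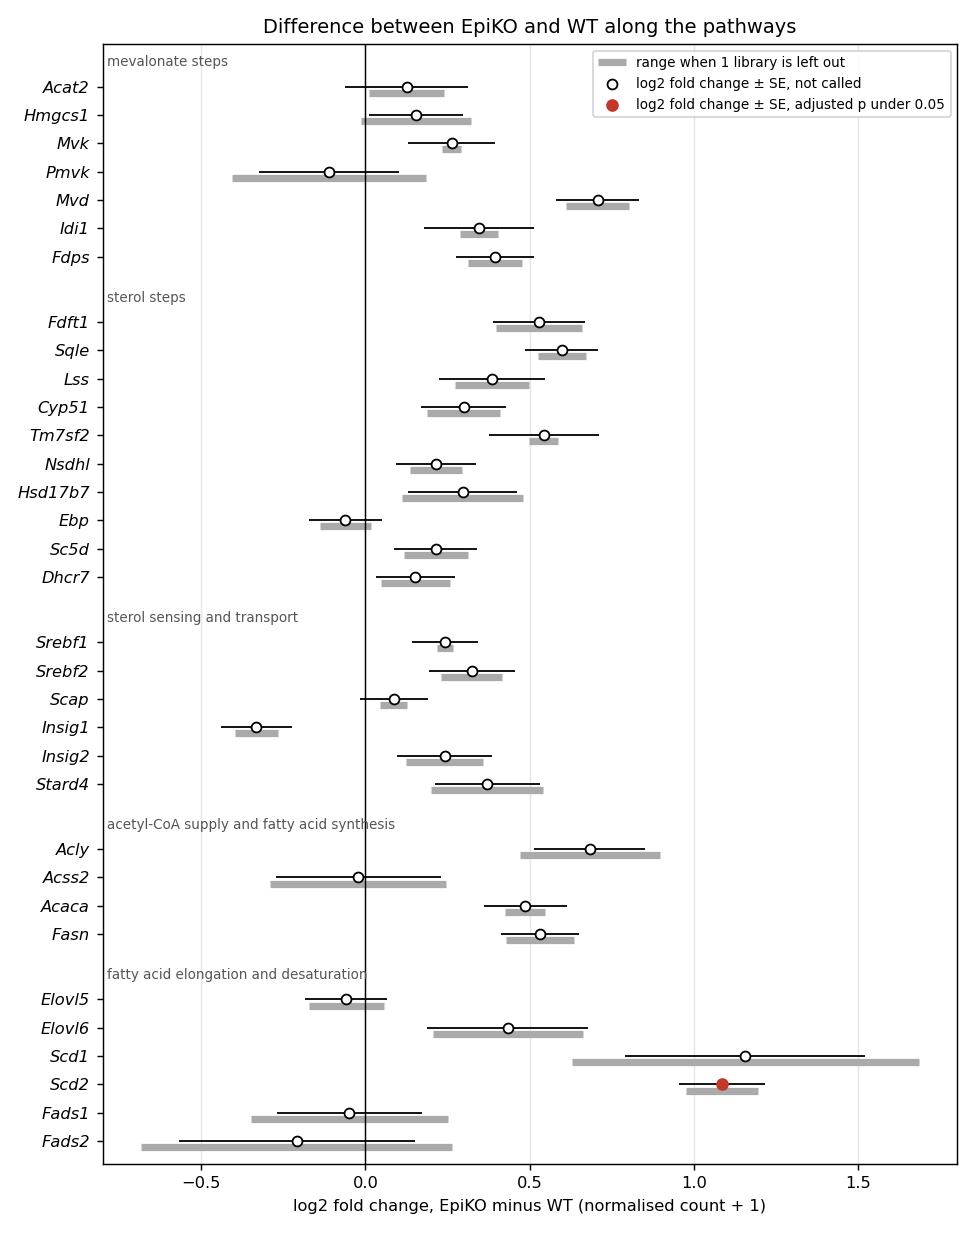
Log2 fold change of each gene, EpiKO minus WT, on the scale of normalised count + 1, with its moderated SE (black bars) and the range over the fits that leave out 1 of the 4 libraries (grey bars); the filled red point is Scd2, with an adjusted p under 0.05. Of the 33 points 26 lie right of 0, Insig1 at -0.33 is the lowest, and Scd1 at 1.16 is the highest with the widest grey bar, from 0.63 to 1.68.

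Of the 4 genes that supply acetyl-CoA and build fatty acids, 3 lay higher in both EpiKO libraries, against 23.3% of all tested genes. None of the 4 was called by limma. At an unadjusted p under 0.05 the same 3 were higher and 0 lower, against 8.07% and 7.57% of all tested genes. DESeq2 called 2 of them, against 3.73% of all tested genes, and edgeR 0, against 0.385%. Acly, ATP citrate lyase, which makes cytosolic acetyl-CoA from citrate, had 9082 and 6761 normalised counts in EpiKO and 4832 and 4927 in WT. The EpiKO libraries were farther from each other than the WT libraries, and the log2 fold change of 0.68 ± 0.169 (SE; limma adjusted p 0.151, 0.0106 by DESeq2) was 0.47 without EpiKO replicate 1. Fasn, fatty acid synthase, had 2326 and 2274 in EpiKO and 1481 and 1711 in WT, a log2 fold change of 0.53 ± 0.118 (SE; limma adjusted p 0.126, 0.0280 by DESeq2).

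Acaca, the acetyl-CoA carboxylase that commits acetyl-CoA to fatty acids, had 520 and 478 normalised counts in EpiKO and 344 and 367 in WT. Its log2 fold change was 0.49 ± 0.127 (SE; limma adjusted p 0.164). Acss2, which makes acetyl-CoA from acetate, had 149 and 102 in EpiKO and 124 and 126 in WT. The EpiKO libraries fell on either side of the WT libraries, at a log2 fold change of -0.022 (SE 0.252), and exons of Gss and Acss2os overlap this gene on the other strand. Acly lies on the minus strand of chromosome 11 of mm10 from 100476353 to 100528000, Fasn on the minus strand of the same chromosome from 120805846 to 120824547, and Acaca on its plus strand from 84129672 to 84401651.

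Among the desaturases and elongases the stearoyl-CoA desaturases stood out from the rest. Next to Scd2, its neighbour on chromosome 19, Scd1, had 377 and 418 normalised counts in EpiKO and 256 and 123 in WT. WT replicate 1 held more than WT replicate 2, and the log2 fold change of 1.16 ± 0.366 (SE; limma adjusted p 0.237) was 1.68 without WT replicate 1 and 0.63 without WT replicate 2. Per kilobase of exon, Scd2 averaged 938 and Scd1 60.7 normalised counts over the 4 libraries. Of the reads of the pair, Scd1 took 4.91% and 5.95% in EpiKO and 6.76% and 3.89% in WT, which overlap. The genes are alike in sequence and how reads matching both were treated is not given, so their split is uncertain.

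The other desaturases and elongases overlapped between the groups. Elovl6, which lengthens palmitate to stearate, had 301 and 219 normalised counts in EpiKO and 163 and 221 in WT, a log2 fold change of 0.43 (SE 0.246). Elovl5, which lengthens polyunsaturated chains, had 1234 and 1148 in EpiKO and 1341 and 1146 in WT. Fads1, a desaturase of the same polyunsaturated route, had 3787 and 5742 in EpiKO and 4582 and 5080 in WT. Its partner Fads2 had 312 and 439 in EpiKO and 308 and 595 in WT. These 3 genes had log2 fold changes of -0.059, -0.049 and -0.21, each within its SE of 0, and Fads1 and Fads2 spread more within a group than between the groups.

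The fatty acid enzymes together, 10 genes, summed to 25390 and 24190 normalised counts in EpiKO and 16967 and 17326 in WT, a ratio of 1.45. All 33 genes summed to 48386 and 46297 in EpiKO and 36241 and 36663 in WT, a ratio of 1.299, and this was 0.258% and 0.254% of the reads in EpiKO and 0.197% and 0.205% in WT. The summed myeloid markers had a ratio of 1.295 with Lyz2 and 0.993 without it. Sums rest mostly on the abundant genes. Per kilobase of exon, Acly and Fads1 were the most abundant, at 1388 and 1385 normalised counts averaged over the 4 libraries, followed by Scd2 at 938 and Srebf2 at 753, while Acss2 was the least abundant at 32.8. The median gap between replicates of these genes on the log2 scale was 0.15 in EpiKO and 0.15 in WT, against 0.19 and 0.18 for all tested genes. The difference between the group means exceeded the larger replicate gap for 22 of the 33 genes. The share of all tested genes that did so was not computed, so this count has nothing to be read against. In bulk libraries, a change in RNA per cell and a change in the share of cells that express a gene cannot be told apart.

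Neighbouring lipid pathways, described by 8 further lists, had medians closer to 0 and counts of positive and negative values nearer to even in most lists. The other cholesterol synthesis genes had 8 tested, with 4 positive and 4 negative log2 fold changes and a median of -0.016. Limma, edgeR and DESeq2 each called 0, and 0 had an unadjusted p under 0.05. Cyb5b, a cytochrome that passes electrons to such enzymes, and Pgrmc1, a heme-binding partner of Cyp51, were at 0.32 (SE 0.134) and -0.29 (SE 0.125) on the log2 scale. The isoprenoid branch to prenyl groups and ubiquinone had 9 tested, 5 positive and 4 negative, with a median of 0.046, and again all tools called 0 and 0 had an unadjusted p under 0.05. Fnta and Fntb, the subunits of farnesyltransferase, stood at -0.25 (SE 0.112) and 0.34 (SE 0.169), and Pdss2, of ubiquinone synthesis, at -0.35 (SE 0.221).

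SREBP cleavage and turnover genes had 10 tested, 7 positive and 3 negative, with a median log2 fold change of 0.017. None was called by limma, edgeR or DESeq2, and 0 had an unadjusted p under 0.05. Syvn1 and March6, ubiquitin ligases of the endoplasmic reticulum, were at 0.29 (SE 0.128) and 0.13 (SE 0.111), and Mbtps1, the site-1 protease that cleaves the Srebf products, was at -0.14 (SE 0.101). The uptake and trafficking list had 10 tested, 6 positive and 4 negative, with a median of 0.095. All tools called 0, and 1 was higher at an unadjusted p under 0.05, against 8.07% of all tested genes. This was Lipa, the lysosomal lipase that frees cholesterol from its esters, with 3432 and 3596 normalised counts in EpiKO and 2703 and 2913 in WT (log2 fold change 0.32 ± 0.109 (SE), limma adjusted p 0.249). Gramd1b, a sterol transporter between membranes, was at -0.34 (SE 0.160).

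The list of LXR targets, esterification and efflux genes held the one gene called among these neighbours. Pltp, phospholipid transfer protein and a known LXR target, fell to 3556 and 4688 normalised counts in EpiKO, against 12516 and 14545 in WT. Its log2 fold change was -1.72 ± 0.177 (SE; limma adjusted p 0.0381, 0.0424 by edgeR and 3.15e-14 by DESeq2). The log2 fold change ran from -1.92 to -1.53 when any 1 library was left out. The gene lies on the minus strand of chromosome 2 of mm10, from 164839518 to 164857711, and its exons overlap those of Ctsa on the opposite strand. Of the 11 tested genes, 6 were positive and 5 negative, with a median of 0.075. At an unadjusted p under 0.05, 2 were higher and 2 lower, against 8.07% and 7.57% of all tested genes. By edgeR 1 was called lower, against 0.457% of all tested genes. DESeq2 called 1 higher and 2 lower, against 3.73% and 3.12%.

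Nr1h3, which encodes the receptor LXR alpha, had 191 and 198 normalised counts in EpiKO and 427 and 346 in WT, a log2 fold change of -0.98 ± 0.166 (SE; limma adjusted p 0.0754, 0.00338 by DESeq2). Ch25h, which makes an oxysterol that restrains the Srebf factors and activates LXR, had 2945 and 2454 in EpiKO and 1390 and 1544 in WT. Its log2 fold change was 0.88 ± 0.137 (SE; limma adjusted p 0.0652, 0.000102 by DESeq2). Both genes were separated between the groups and missed the limma threshold.

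Other fatty acid synthesis and elongation genes had 15 tested, 10 positive and 5 negative, with a median of 0.068. Limma and edgeR called 0, and DESeq2 called 1 higher, against 3.73% of all tested genes. At an unadjusted p under 0.05, 1 was higher, against 8.07%. That gene was Mlxipl, which encodes the carbohydrate-responsive factor ChREBP, with 41.98 and 49.1 normalised counts in EpiKO and 9.27 and 6.72 in WT. Its log2 fold change was 2.38 ± 0.418 (SE; limma adjusted p 0.0809, 0.00944 by DESeq2). Both WT values lay under the minimum of 10, so Mlxipl entered the tests only through its EpiKO values. Its p-values are therefore no independent support for a difference. Slc25a1, the carrier that exports citrate from mitochondria for Acly, had 1236 and 1172 in EpiKO and 978 and 1048 in WT (log2 fold change 0.25, SE 0.106). Acacb, the mitochondrial-membrane carboxylase, was low, at 6.46 and 6.62 in EpiKO and at 22.02 and 12.6 in WT. It entered the tests only through its WT values.

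Fatty acid activation and triglyceride synthesis had 11 tested, 5 positive and 6 negative, with a median of -0.055. Limma and edgeR called 0 and DESeq2 called 1 lower, against 3.12% of all tested genes. At an unadjusted p under 0.05, 1 was higher and 1 lower, against 8.07% and 7.57%. The lower one was Acsl1, a long-chain acyl-CoA synthetase, with 889 and 882 normalised counts in EpiKO and 1513 and 1417 in WT (log2 fold change -0.72 ± 0.103 (SE), limma adjusted p 0.0567, 0.000484 by DESeq2). Lpin1 and Lpin2, phosphatidate phosphatases, were at 0.61 (SE 0.232) and -0.34 (SE 0.138). Fatty acid oxidation had 14 tested, of which 3 were positive and 11 negative, with a median of -0.11. All tools called 0, and at an unadjusted p under 0.05 1 was higher and 1 lower, against 8.07% and 7.57% of all tested genes. Cpt1a, the gatekeeper of mitochondrial import, was at 0.42 (SE 0.155), Acadvl, an acyl-CoA dehydrogenase, at -0.28 (SE 0.101), and Acaa2, a mitochondrial thiolase, at -0.37 (SE 0.187). The difference in lean between these lists and the 33 genes was not tested.

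**Figure D4:**
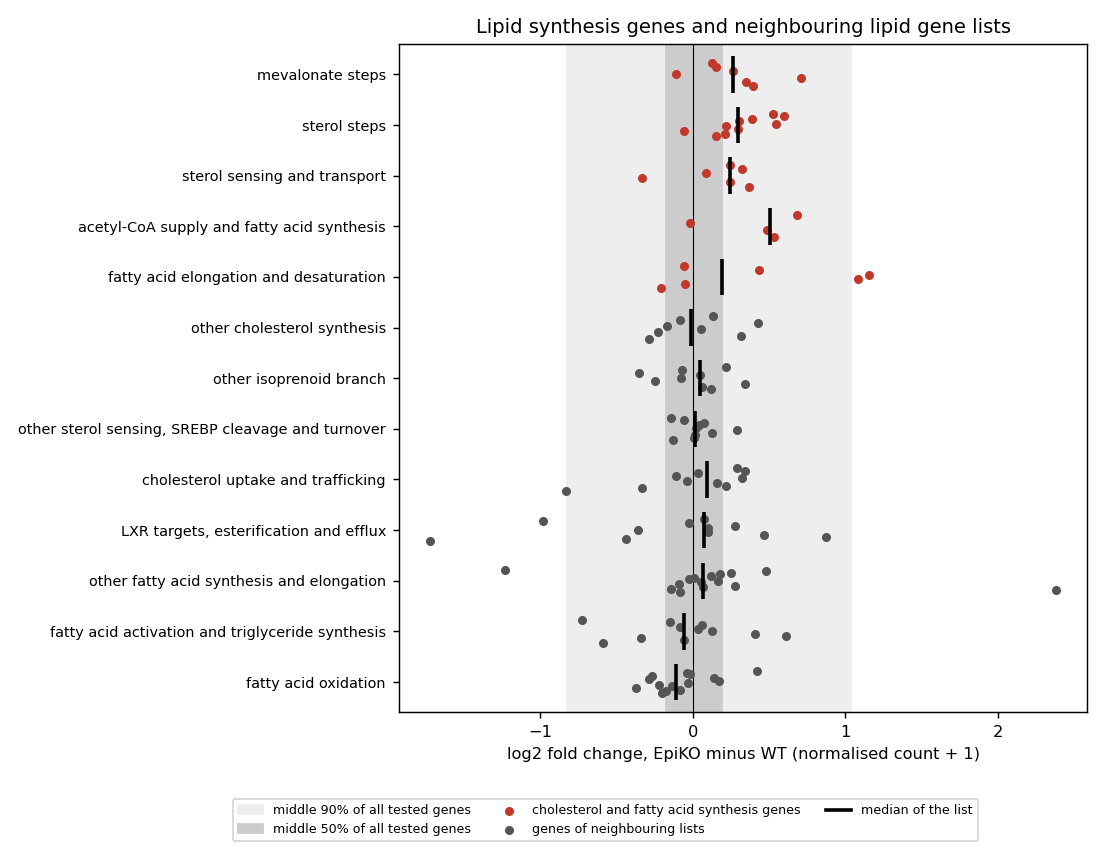
Log2 fold change, EpiKO minus WT, of each tested gene (points) and the median (black bars) of the 5 groups of cholesterol and fatty acid synthesis genes (red) and of 8 neighbouring lipid lists (grey), over bands that hold the middle 50% and 90% of all tested genes. The medians of the red groups lie between 0.19 and 0.51, and those of the grey lists between -0.11 and 0.095.

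Markers of other lipid-making cells were near 0. Of 6 adipocyte markers, led by Plin1, Adipoq and Plin4, Cidec, Lep and Adrb3 had no read in any library, and the summed level was 4.31 and 0.945 normalised counts in EpiKO and 0 and 2.52 in WT. Of 5 sebaceous gland markers, led by Elovl3, Awat2 and Scd3, Mc5r had no read, and the sum was 0 and 3.78 in EpiKO and 20.9 and 10.1 in WT, with Elovl3 at 0 and 0 in EpiKO and at 10.4 and 2.52 in WT. The 10 keratinocyte markers summed to 2731 and 5286 in EpiKO and to 5015 and 319 in WT, which overlap although single genes separated in opposite directions. Krt18 stood at 698 and 1074 in EpiKO and at 121 and 30.3 in WT. Krt8 was likewise higher in both EpiKO libraries, while Krt14 was lower in both. None of the 4 that could be tested passed (limma). DESeq2 called 2 higher and 1 lower, against 3.73% and 3.12% of all tested genes. The 7 fibroblast markers summed to 18262 and 27242 in EpiKO and to 31479 and 21030 in WT, with Col3a1, Col1a1 and Col1a2 the highest. The overlapping sum held genes that separated in opposite directions. Pdgfra stood at 723 and 1014 in EpiKO and at 484 and 471 in WT (limma adjusted p 0.123), and Pdgfrb at 322 and 492 in EpiKO and at 243 and 186 in WT (limma adjusted p 0.203), both higher in EpiKO, while Col3a1 was lower, at 8619 and 10633 in EpiKO and at 17999 and 11540.3 in WT. None passed the limma test, and DESeq2 called 1 of the 7 higher, against 3.73% of all tested genes. The 5 endothelial markers summed to 225 and 231 in EpiKO and to 227 and 179 in WT, again over opposite directions. Pecam1, at 104 and 117 in EpiKO and 73.0 and 53.8 in WT, and Cdh5, at 76.4 and 85.1 in EpiKO and 57.95 and 61.4 in WT, were higher in EpiKO. Kdr was lower, at 36.6 and 23.6 in EpiKO and 76.5 and 59.7 in WT. None of the 3 that could be tested passed (limma). The part of these cell types in the lipid genes was not tested. Of the 6 markers of T and NK cells Cd8a had no read, and the sum of 103 and 899 in EpiKO and 1762 and 577 in WT came almost wholly from Cd4, with Ncr1 and Nkg7 at 4.73 or below in every library.

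The 4 neutrophil markers, led by S100a9, S100a8 and Cxcr2, summed to 237 and 208 in EpiKO and 158 and 1316 in WT, and the 4 mast cell markers, led by Tpsb2, Kit and Mcpt4, to 94.7 and 16.1 in EpiKO and 252 and 30.3 in WT. Kit was lower in both EpiKO libraries, at 6.46 and 8.51 in EpiKO and 46.4 and 25.2 in WT. Of these sums of other cell types, most overlapped between the groups. The overlapping keratinocyte, fibroblast and endothelial sums held genes that separated in opposite directions. The sebaceous gland sum was higher in both WT libraries at these low levels. Without WT replicate 1, the library with basal keratin transcripts, 28 of the 33 lipid genes had a positive log2 fold change, against 48.4% of all tested genes. Their median was 0.23, where it was 0.30 with all libraries. Krt8 and Krt18 remain higher in EpiKO without that library, and their part in the lipid genes was not tested.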

How the data were processed

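RNA-seq covered 4 libraries of CD11b+ CD200R1+ myeloid cells. The submitters' processing notes name bcl2fastq 2.17, STAR 2.5.2b, featureCounts 1.5.0-p3, DESeq2 and the mm10 build. Annotation, strand use and multi-mapping are not stated in those notes. Values deposited by the authors are a normalised signal, that is, each library's counts over its own size factor. Dividing by the value of 1 read gave whole numbers (100% within 1e-06) and so the reads, 15884132 to 21244158 per library.

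The groups were set against each other with limma 3.58.1 (R 4.3.3; trend, robust moderation, no covariate) on log2(value + 1), a scale that understates changes of low genes. Genes reaching 10 in 2 or more libraries entered, p-values were adjusted by Benjamini-Hochberg over all 12463, and calls were made under 0.05. Alternatives on the recovered reads were edgeR 4.0.16 (quasi-likelihood, TMM) and DESeq2 1.42.0 (Wald). Fits were tested on simulated counts. Exons and coordinates came from GENCODE M21 and promoters from RefSeq. Of the listed symbols, 6 were matched by RefSeq synonym and 2 had no match.

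All 33 genes are named. Each neighbouring list gives up to 3 genes by smallest p and any called, and each marker list up to 3 of its most abundant; a few genes that these rules name, and 1 marker list, are not reported here. Ptprc, Cd200r1, Pdgfra, Pdgfrb and the sum without Lyz2 were added after their values were seen. Members and lists were chosen with earlier results of these data known.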

Additional observations from a re-analysis of the deposited data

How the results depend on the processing

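No paired analysis was possible because the labels carry no replicate numbers, which here only follow the order of the samples. Every call rests on 2 libraries per group, so single-library values limit it most. Over all tested genes, 52 were called higher and 66 lower. DESeq2 on recovered reads called 465 and 389, limma without trend or robust moderation 14 and 24, and a threshold of 0.1 gave 226 and 202. Without 1 library, 0 to 2 were higher and 0 to 4 lower. Of the 33 genes 1 was called higher, against 5 by DESeq2, 0 by edgeR, 0 without trend or robust moderation, 3 at a threshold of 0.1, and 0 to 0 without 1 library. Leaving out 1 library leaves fewer degrees of freedom, and a library then alone in its group is taken to vary as those of the other do; other causes were not tested. Scd2 was also called at pseudocounts of 0.5 and 5, at a minimum of 50 or none, and after quantile normalization or scaling to equal totals. The count of genes at an unadjusted p under 0.05 (10, added after seeing the data) ran from 6 to 10 without 1 library, and the median of the 33 from 0.23 to 0.33. The number with a positive log2 fold change (also added later) was 26 to 28 over all alternatives. Equal library totals and quantile normalization left 26 positive and moved the median of all tested genes to -0.030 and -0.012.

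Genes close to 0 changed sign. Over the fits without 1 library, Acss2 ran from -0.29 to 0.25, Ebp from -0.14 to 0.016, Elovl5 from -0.17 to 0.055, Fads1 from -0.35 to 0.25, Fads2 from -0.68 to 0.26, Hmgcs1 from -0.015 to 0.32 and Pmvk from -0.41 to 0.19. Without EpiKO replicate 1, the log2 fold change was 0.25 for Fads1 and 0.037 for Fads2. Without EpiKO replicate 2, it was 0.25 for Acss2, 0.016 for Ebp and -0.015 for Hmgcs1. Without WT replicate 1, it was 0.055 for Elovl5 and 0.19 for Pmvk, and without WT replicate 2, 0.025 for Fads1 and 0.26 for Fads2. DESeq2 gave 0.00087 for Acss2. None of these was called in any fit.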
